A study of Mus musculus with 24 samples.

Results

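The 5 genes described here showed steep rises in RNA after loss of Spt5: Slc18a1, Lrrc51, 0610009L18Rik, D130020L05Rik and Pmel. They are 5 of the 14106 genes in the count table, and each matched 1 row of it by name. They were chosen by their fold change between the same libraries, as the largest rises among autosomal genes other than histone genes that passed the test of the whole table. A mean level of 5 CPM or more and libraries that do not overlap between the groups were also required. Of all 12024 genes tested 62.4% passed that test in either direction, 31.8% as higher, so passing is common here. The values below that compare the groups for these genes are therefore a description, and no p-value is given for them.

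Polyadenylated RNA was sequenced from B lymphocytes of the mouse spleen cultured with interleukin 4 and lipopolysaccharide. In the 3 Spt5-depleted libraries the primary B cells had the genotype Supt5hFl/- Rosa26ERT2-cre/+, that is 1 floxed and 1 null allele of the gene for Spt5 and a tamoxifen-activated Cre recombinase. In the 3 WT libraries the cells were Rosa26ERT2-cre/+ and carried no floxed or null allele. Both groups were activated for 28 h and then given 2 µM 4-hydroxytamoxifen for 32 h, 60 h of activation in all, so the recombinase and the drug were shared. The labels give no age or strain and describe the cells both as mature and as immature. They do not tie libraries to animals, so the p-values below reflect library-to-library spread only, possibly of technical origin.

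Spt5 pairs with Spt4 to form DSIF, a factor that holds RNA polymerase II in promoter-proximal pausing and then travels with it during elongation. Slc18a1 encodes a vesicular monoamine transporter (VMAT1) that loads amines into the secretory vesicles of neuroendocrine cells in exchange for protons. Pmel encodes the protein that forms the fibrils on which melanin is laid down in the melanosomes of pigment cells. Lrrc51 encodes a leucine-rich repeat protein, and 0610009L18Rik and D130020L05Rik are annotated by RefSeq as long non-coding RNAs. Neither VMAT1 nor PMEL is known as a product of the B lineage.

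Supt5, which encodes Spt5, had 189, 196 and 314 counts in the Spt5-depleted libraries, against 3796, 3512 and 4666 counts in the WT libraries. The Spt5-depleted libraries held between 17306549 and 21441575 counts and the WT libraries between 23340978 and 25649611, so each depleted library was the shallower. Xist and genes of the Y chromosome also divided the groups, with 18 to 40 counts of Xist in Spt5-depleted and 11367 to 20130 in WT libraries, and with 324 to 1252 counts of Ddx3y, Eif2s3y, Uty and Kdm5d in Spt5-depleted and 0 to 2 in WT libraries. Whether a difference described here goes with the induced deletion, with the null allele or with this division cannot be told apart.

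Levels are given below as CPM, read counts relative to the library total, scaled by TMM, a method that assumes that most genes do not change. Here 62.4% of tested genes passed the test, 31.8% as higher and 30.6% as lower, so that assumption is in doubt. Each rise or fall is relative to the other genes, and the amount of RNA per cell cannot be read from it. CPM is not corrected for gene length, so which of the 5 genes is the most abundant is not read from it. Log2 fold changes are Spt5-depleted over WT and come, with their standard errors (SE), from one fit of all 12024 genes that passed a filter on low counts.

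Slc18a1 had 292, 278 and 351 counts in the Spt5-depleted libraries, against 16, 20 and 26 counts in the WT libraries. Scaled, that was 16.3, 13.0 and 15.2 CPM in Spt5-depleted libraries and 0.674, 0.909 and 1.07 CPM in WT libraries. The row of the transporter was low but not empty in every WT library and high in every depleted library, without overlap. Its mean was 14.8 ± 1.67 CPM in Spt5-depleted and 0.884 ± 0.199 CPM in WT libraries (SD, n = 3 each), with a log2 fold change of 4.06 ± 0.19 (SE), 16.6-fold higher.

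Lrrc51 had 802, 964 and 942 counts in the Spt5-depleted libraries, against 44, 67 and 89 counts in the WT libraries. On the CPM scale the mean was 43.6 ± 2.43 in Spt5-depleted and 2.85 ± 0.921 in WT libraries (SD, n = 3 each). The log2 fold change was 3.93 ± 0.17 (SE), 15.2-fold higher. The groups did not overlap, and WT replicate 1 was the lowest library. The coefficient of variation was 5.58% in Spt5-depleted libraries and 32.3% in WT libraries, where counting error alone would give 3.33% and 12.2%.

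0610009L18Rik had 353, 384 and 424 counts in the Spt5-depleted libraries, against 46, 30 and 26 counts in the WT libraries. Its mean level was 18.7 ± 0.908 CPM in Spt5-depleted and 1.46 ± 0.441 CPM in WT libraries (SD, n = 3 each), a log2 fold change of 3.67 ± 0.18 (SE). Here WT replicate 1 was the highest of the WT libraries, and the 3 depleted libraries lay within 17.98 to 19.7 CPM.

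D130020L05Rik had 266, 269 and 305 counts in the Spt5-depleted libraries, against 31, 22 and 23 counts in the WT libraries. Mean levels were 13.5 ± 1.17 CPM in Spt5-depleted and 1.08 ± 0.194 CPM in WT libraries (SD, n = 3 each), and the log2 fold change was 3.63 ± 0.18 (SE). The depleted libraries were all above the WT libraries, and the spread within WT, 17.9%, was below the 19.9% that counting error alone would give.

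Pmel had 377, 427 and 448 counts in the Spt5-depleted libraries, against 42, 38 and 42 counts in the WT libraries. The levels were 21.0, 20.0 and 19.4 CPM in Spt5-depleted libraries and 1.77, 1.73 and 1.73 CPM in WT libraries, the tightest pair of groups of the 5 genes. The spread within WT, 1.35%, was far below the 15.7% that counting error alone would give. Its log2 fold change was 3.53 ± 0.14 (SE), 11.5-fold higher.

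**Figure D1:**
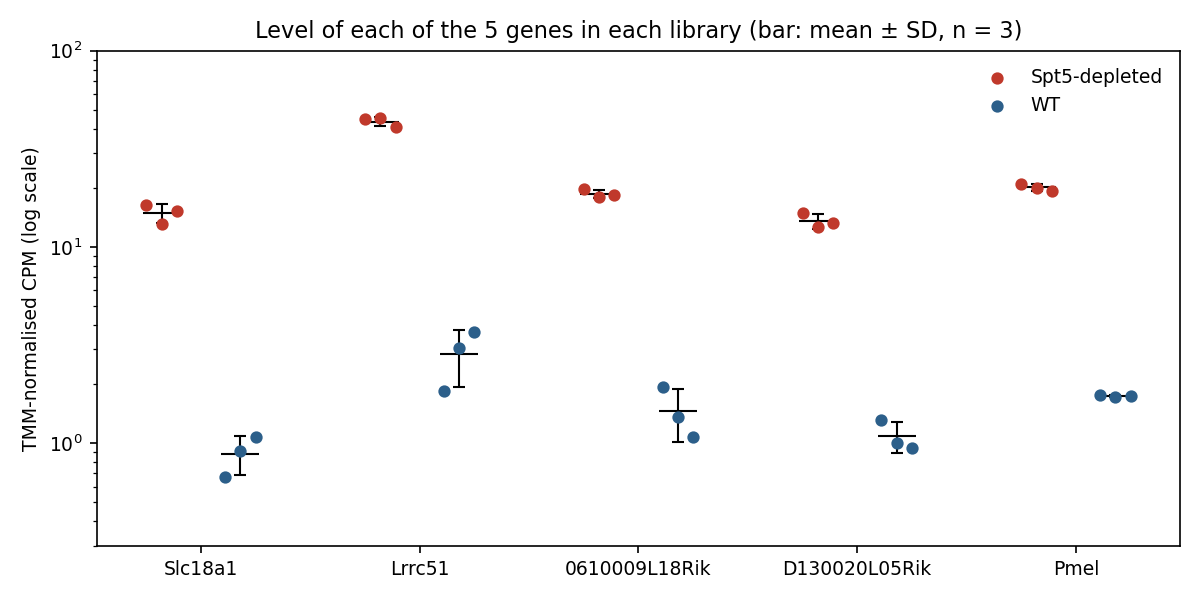
TMM-normalised CPM (log scale) of the 5 genes in each library, 3 Spt5-depleted libraries left of 3 WT libraries for each gene. Points are libraries and bars are the mean ± SD. In each gene the depleted libraries lie apart from the WT libraries, from 12.6 CPM upwards against at most 3.66 CPM.

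The lowest depleted library stood above the highest WT library by a factor between 9.28 (0610009L18Rik) and 12.2 (Slc18a1). Libraries that do not overlap and are higher in Spt5-depleted cells were found for 34.2% of all tested genes, so the absence of overlap is common in this table and the choice of these genes required it. The order of the fold changes, from Slc18a1 down to Pmel, is not resolved between neighbours: Slc18a1 and Lrrc51 differed by 0.13 ± 0.26, 0610009L18Rik and D130020L05Rik by 0.04 ± 0.25, and D130020L05Rik and Pmel by 0.11 ± 0.23 on the log2 scale (difference ± SE). The gap between the first and the last, Slc18a1 and Pmel, was 0.53 ± 0.24. Summed over the 5 genes, the libraries held 2090, 2322 and 2470 counts in Spt5-depleted cells, against 179, 177 and 206 counts in WT cells.

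The label "switched on" is only partly borne out by these levels. Each gene had at least 16 counts in every WT library, so the rows were low and not empty in WT. The Y-linked rows at 0 to 2 counts show what an empty row looks like at this depth. For Slc18a1, Pmel and D130020L05Rik these counts may hold reads of genes that overlap them, which was not tested. In bulk RNA a rise in a few cells and a small rise in all cells cannot be told apart.

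Among all tested genes ordered by fold rise, with no minimum level, Slc18a1 came 25th, Lrrc51 29th, 0610009L18Rik 37th, D130020L05Rik 39th and Pmel 49th. The genes just outside the limit of the rule were close in value. Adc (Azin2 in RefSeq) had a log2 fold change of 3.47 and Ly6i, a member of the Ly6 surface protein family, one of 3.42. For 1110006O24Rik it was 3.40, for Icosl, the ligand of the costimulatory receptor ICOS, 3.34, and for Cmya5 3.25. Pmel, just inside the limit, had 3.53. Icosl is a gene that B cells are known to use. Among the 2335 tested genes whose mean lay in the range of the 5 genes, 7.32 to 23.2 CPM, 15 were called at least 8-fold higher (0.642%). The 5 genes had to be among those 15, since their own means set the range and they were chosen by their rise. The Y-linked Ddx3y, Kdm5d and Uty are among the 15 too. Over all 12024 genes, 0.773% were called at least 8-fold higher.

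**Figure D2:**
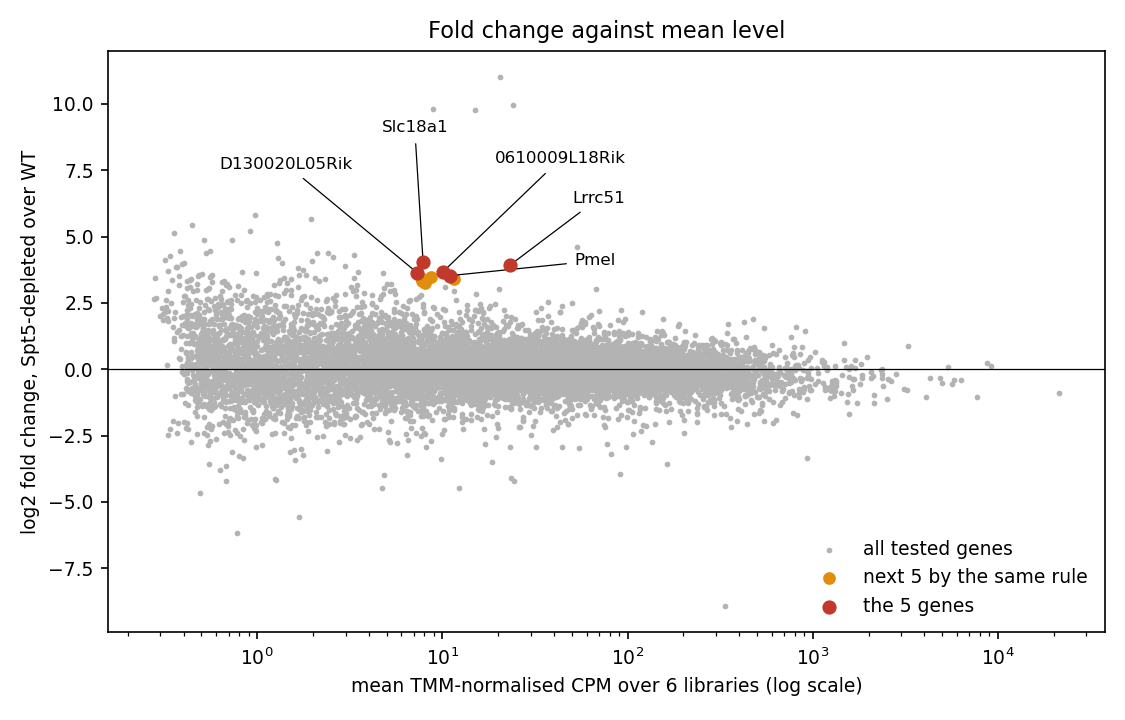
Log2 fold change (Spt5-depleted over WT) against the mean TMM-normalised CPM over the 6 libraries (log scale) for the 12024 tested genes. Grey points are all genes, red points the 5 genes and orange points the next 5 under the same rule. The red and orange points lie side by side, between 3.25 and 4.06.

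To find the rows outside the 5 with the most similar levels, genes were ordered by the root mean square distance of log2(CPM + 0.5) over the 6 libraries. This distance takes in both the level and the difference between the groups. The level is not corrected for gene length, so a small distance means similar read counts and not similar amounts of RNA. For Slc18a1 they were Ly6i (0.34), Icosl (0.35) and Adc (0.38). For 0610009L18Rik they were Adc (0.29), Cmya5 (0.37) and Icosl (0.38), and for D130020L05Rik Icosl (0.27), Ly6i (0.30) and Adc (0.32). Pmel lay closest to 1110006O24Rik (0.20), Gm11696 (0.22) and Adc (0.29). Lrrc51 had no row as close: the nearest were Hfe (0.53), the regulator of iron uptake, Mttp (0.64), a lipid transfer protein, and Steap4 (0.73), a metalloreductase. Hfe had 35.9 ± 2.17 CPM in Spt5-depleted and 4.41 ± 0.398 CPM in WT libraries (SD, n = 3 each). Among the 5 genes themselves, 0610009L18Rik and Pmel were the nearest pair (0.25), and D130020L05Rik and Lrrc51 the farthest (1.43). Slc18a1 lay 0.28 from D130020L05Rik, nearer than any row outside the 5.

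Promoter sequences were read for the 3 genes that the RefSeq promoter table (GRCm38.p6) holds, Lrrc51, 0610009L18Rik and D130020L05Rik, since the position of the start decides which neighbours share it. The 250 bases before the annotated start are shown 5′ to 3′ on the strand of the gene, in lower case, with matches to any of 7 motifs in capitals. The motifs were the TATA box (TATAAA), the CCAAT box (CCAAT), the GC box (GGGCGG), the E box (CACGTG), the cyclic AMP response element (TGACGTCA), the AP-1 site (TGANTCA) and the CArG box, the site of serum response factor, and both strands were searched.
Lrrc51 (chr7:101921226-101921475, minus strand): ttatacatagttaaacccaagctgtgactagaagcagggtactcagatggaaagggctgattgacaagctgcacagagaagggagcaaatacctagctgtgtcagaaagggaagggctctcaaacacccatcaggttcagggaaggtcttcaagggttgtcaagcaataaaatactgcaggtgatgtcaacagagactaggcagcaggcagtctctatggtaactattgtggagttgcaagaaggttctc
0610009L18Rik (chr11:120348428-120348677, plus strand): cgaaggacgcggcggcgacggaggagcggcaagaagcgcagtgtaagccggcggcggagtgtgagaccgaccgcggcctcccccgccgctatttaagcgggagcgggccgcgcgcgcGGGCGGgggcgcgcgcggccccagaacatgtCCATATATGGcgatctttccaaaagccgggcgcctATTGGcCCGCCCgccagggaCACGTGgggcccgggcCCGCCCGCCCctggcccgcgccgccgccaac
D130020L05Rik (chr12:101082201-101082450, plus strand): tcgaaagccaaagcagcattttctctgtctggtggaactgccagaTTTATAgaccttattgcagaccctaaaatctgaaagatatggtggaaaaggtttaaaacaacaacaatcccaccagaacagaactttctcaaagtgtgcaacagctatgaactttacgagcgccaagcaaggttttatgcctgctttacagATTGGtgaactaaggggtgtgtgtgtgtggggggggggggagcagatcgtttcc

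The 3 windows differ in base composition. The window of 0610009L18Rik had 75.2% G and C and 41 CpG, that of Lrrc51 46.4% and 0 CpG, and that of D130020L05Rik 45.2% and 4 CpG, next to medians of 52.4% and 6 CpG over the 32851 promoters of the table. The window of 0610009L18Rik held 4 GC boxes, 2 of them overlapping, 1 CCAAT box, 1 E box and 1 CArG box, the last 102 to 93 bases before the start. A GC box was present in 32.7% of all promoters, a CCAAT box in 33.9%, an E box in 6.02% and a CArG box in 1.47%. The window of D130020L05Rik held a CCAAT box and, 205 to 200 bases before the start, the letters of a TATA box on the opposite strand, which 12.4% of promoters contain. In the window of Lrrc51 none of the 7 motifs was found. No motif was common to the 3 windows.

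Neighbours were taken from RefSeq (GRCm38.p6) as the 5 nearest genes on each side, and genes that the choice of the 5 did not use were tested. Their rows were tested with edgeR's quasi-likelihood test with Benjamini-Hochberg adjustment over all 12024 genes, and a gene is said to have risen or fallen at an adjusted p under 0.05. Of 50 neighbours 25 had a row in the table used here and 23 were tested, of which 5 rose and 7 fell, with a median log2 fold change of -0.13. Over all tested genes 31.8% rose and 30.6% fell, with a median of 0.005. Scaled by library totals alone, the median of the neighbours turned to 0.03 and that of all genes moved to 0.16.

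**Figure D3:**
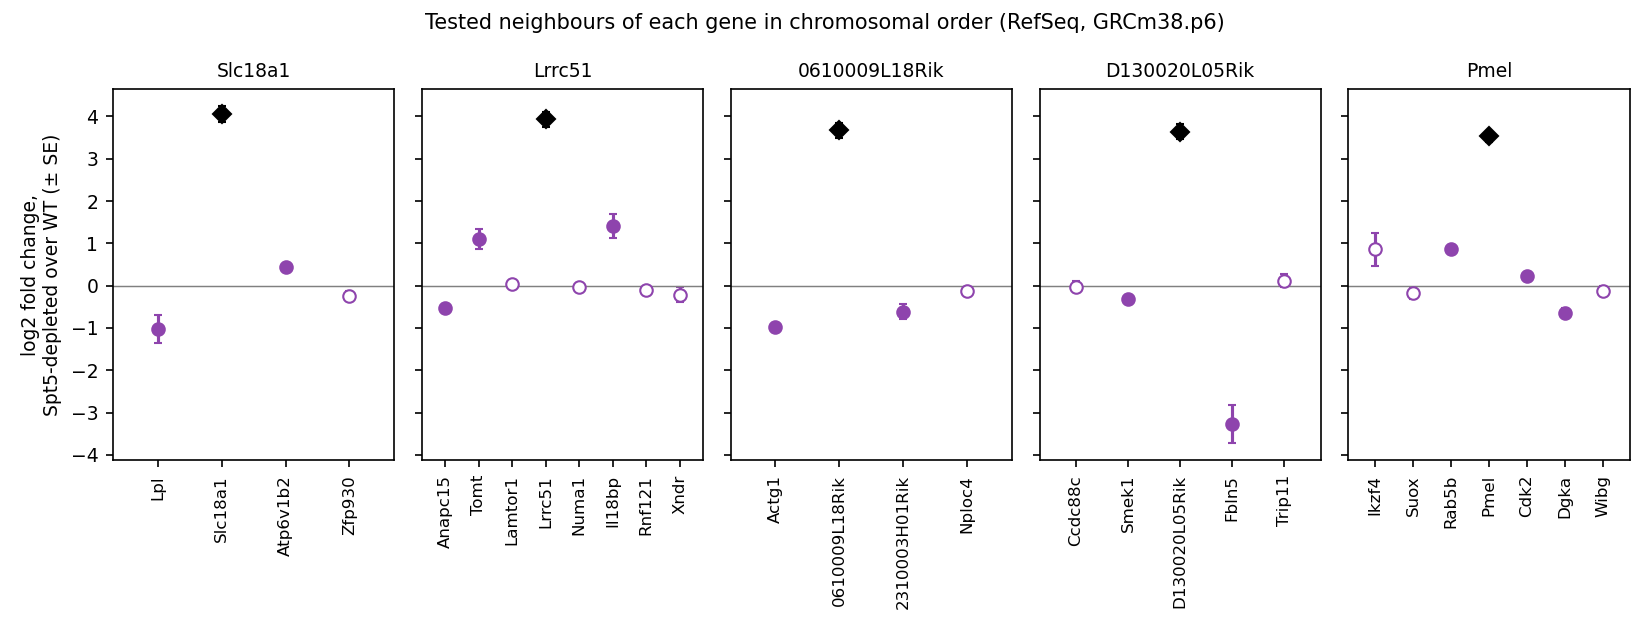
Log2 fold change (Spt5-depleted over WT, ± SE) of each of the 5 genes (black diamond) and of its tested neighbours in the order of the chromosome. Filled circles passed an adjusted p of 0.05 and open circles did not. The tested neighbours lie between -3.28 and 1.40, on both sides of 0.

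Next to Slc18a1, RefSeq places Atp6v1b2, whose annotated span overlaps it and which encodes a subunit of the vacuolar proton pump. Atp6v1b2 had 5214, 6506 and 6389 counts in Spt5-depleted libraries, against 5178, 4583 and 5341 counts in WT libraries. It rose to 291 ± 14.1 CPM in Spt5-depleted, against 215 ± 6.25 CPM in WT libraries (SD, n = 3 each; log2 fold change 0.43 ± 0.08 SE, edgeR adjusted p = 0.00033). Lpl, lipoprotein lipase and the fourth gene on the other side, fell to 1.03 ± 0.317 CPM in Spt5-depleted, against 2.12 ± 0.822 CPM in WT libraries (SD, n = 3 each; edgeR adjusted p = 0.0132). Lpl no longer passed when Spt5-depleted replicate 1 or 3 or WT replicate 1 was left out (adjusted p = 0.0559, 0.0544 and 0.0858). Zfp930, a zinc finger gene, stood at -0.24 (adjusted p = 0.0654).

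Around Lrrc51, the closest genes on both sides did not pass the test. Lamtor1, a lysosomal scaffold of nutrient signalling, had 53.2 ± 1.97 CPM in Spt5-depleted and 51.7 ± 3.40 CPM in WT libraries, and Numa1, a spindle protein, had 104 ± 8.11 and 107 ± 12.1 CPM (SD, n = 3 each; edgeR adjusted p = 0.714 and 0.775). Tomt, a methyltransferase required in the hair cells of the inner ear, lies one gene further. In human, LRRC51 and TOMT sequences are joined in a locus named LRTOMT. Tomt had 65, 80 and 66 counts in Spt5-depleted libraries, against 45, 29 and 37 counts in WT libraries, and rose to 3.41 ± 0.484 CPM in Spt5-depleted, against 1.58 ± 0.293 CPM in WT libraries (SD, n = 3 each; edgeR adjusted p = 0.000657). Il18bp, the soluble inhibitor of interleukin 18, rose by 1.40 ± 0.28 (SE, adjusted p = 0.00117) and Anapc15, of the anaphase-promoting complex, had a log2 fold change of -0.53 ± 0.11 (SE, adjusted p = 0.000508). Rnf121 and Xndr did not pass (-0.11 and -0.21, adjusted p = 0.397 and 0.299).

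0610009L18Rik and Actg1, the gene for cytoplasmic gamma actin, start 183 bases apart on opposite strands in the RefSeq promoter table, and their windows in that table share 282 bases, the CArG box above among them. The 2 genes of this shared start region moved in opposite directions. Actg1 had 26398, 32578 and 30106 counts in Spt5-depleted libraries, against 72285, 56326 and 70831 counts in WT libraries, without overlap. It fell to 1434 ± 117 CPM in Spt5-depleted, against 2840 ± 251 CPM in WT libraries (SD, n = 3 each; log2 fold change -0.99 ± 0.10 SE, edgeR adjusted p = 8.81e-07). Actins are a family with near-identical copies and processed pseudogenes, so the count of Actg1 is uncertain. On the other side of the RNA, 2310003H01Rik, listed by RefSeq as the Fanconi anaemia gene Faap100, fell by 0.62 ± 0.18 on the log2 scale (SE, adjusted p = 0.00784). Nploc4 did not pass (-0.13, adjusted p = 0.224), and Fscn2 had too few counts to be tested, 4 to 8 in Spt5-depleted and 1 to 3 in WT libraries.

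D130020L05Rik lies beside Smek1 (Ppp4r3a in RefSeq, a regulatory subunit of protein phosphatase 4), whose annotated span overlaps it on the opposite strand. Their starts are 1251 bases apart. Smek1 fell to 112 ± 6.42 CPM in Spt5-depleted, against 140 ± 11.3 CPM in WT libraries (SD, n = 3 each; log2 fold change -0.31 ± 0.09 SE, edgeR adjusted p = 0.00697), a call lost with library totals alone (adjusted p = 0.165). Fbln5, a protein of elastic fibres, had 3, 2 and 4 counts in Spt5-depleted libraries, against 28, 45 and 28 counts in WT libraries, the steepest fall among the neighbours (log2 fold change -3.28 ± 0.45 SE, edgeR adjusted p = 1.77e-05). Trip11 and Ccdc88c did not pass (0.12 and -0.03, adjusted p = 0.532 and 0.856).

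Pmel sits among genes whose RefSeq spans overlap it. Rab5b, a small GTPase of early endosomes, rose to 54.5 ± 3.18 CPM in Spt5-depleted, against 29.96 ± 3.87 CPM in WT libraries (SD, n = 3 each; log2 fold change 0.86 ± 0.10 SE, edgeR adjusted p = 5.58e-06). Cdk2, the cell cycle kinase, rose by 0.22 ± 0.08 on the log2 scale (SE, adjusted p = 0.0304). Cdk2 no longer passed when Spt5-depleted replicate 1 or 3 or WT replicate 2 was left out (adjusted p = 0.0747, 0.118 and 0.0644). Dgka, a diacylglycerol kinase, fell to 16.2 ± 0.491 CPM in Spt5-depleted, against 25.2 ± 3.24 CPM in WT libraries (SD, n = 3 each; log2 change -0.64 ± 0.11 SE, edgeR adjusted p = 0.000176). Ikzf4, Suox and Wibg did not pass (0.86, -0.18 and -0.13, adjusted p = 0.0675, 0.251 and 0.325), and Mmp19, with 3 to 8 counts in Spt5-depleted and 3 to 7 in WT libraries, was not tested.

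The rows of Pmel and D130020L05Rik carry a suffix, IMP_OVL, that may mark overlap with another gene and that is on 2005 of 14106 names (14.2%), while the other 3 rows carry none. Genes with the suffix rose about as often as genes without it, 564 of 1714 tested (32.9%) against 3259 of 10310 (31.6%). Of the 5 neighbours that overlap one of these genes in RefSeq, Smek1 and Dgka carry the suffix, while Atp6v1b2, Rab5b and Cdk2 do not. Actg1 carries it as well. The strand setting of the counting is not given in the sources used here. Reads of Slc18a1, Pmel and D130020L05Rik and of the genes that overlap them can therefore not be told apart with certainty, and their part in the values was not tested.

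The partners of Slc18a1 were followed through 25 genes of monoamine synthesis, transport and breakdown, of which 13 had a row and 11 were tested. Of these 4 rose (36.4%, close to the 31.8% of all tested genes) and 2 fell, with a median log2 fold change of 0.04. With DESeq2 and with limma-voom 3 rose. The paralog Slc18a2, the transporter VMAT2, had 33, 43 and 47 counts in Spt5-depleted libraries, against 65, 31 and 38 counts in WT libraries. These overlapped, and the log2 fold change was 0.04 ± 0.27 (SE, edgeR adjusted p = 0.896). Slc18b1, a vesicular polyamine transporter, rose to 3.73 ± 0.550 CPM in Spt5-depleted, against 2.20 ± 0.0829 CPM in WT libraries (SD, n = 3 each; adjusted p = 0.00423). Hdc, the histamine-forming decarboxylase, rose to 1.99 ± 0.359 CPM, against 0.895 ± 0.350 CPM in WT libraries (SD, n = 3 each; edgeR adjusted p = 0.00415). Of the enzymes of the tetrahydrobiopterin cofactor, Gch1 fell by 0.62 and Qdpr by 0.75 on the log2 scale (adjusted p = 8.91e-05 and 2.45e-05). Ddc, the enzyme that makes dopamine and serotonin from their precursors, had 1 to 4 counts in Spt5-depleted and 5 to 7 in WT libraries and was not tested, and the table used here has no row for Th, Dbh, Pnmt, Tph1 or Tph2.

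Of 19 genes of neuroendocrine dense-core vesicles, the stores that VMAT1 fills in those cells, 7 had a row and 4 were tested. By edgeR 0 rose and 2 fell, next to 31.8% and 30.6% of all tested genes. Insm1, a neuroendocrine transcription factor, was among those that fell, at -0.77 (adjusted p = 5.71e-06). At an unadjusted p under 0.05, with DESeq2 and with limma-voom, 0 also rose. Chga, chromogranin A, had 1, 1 and 2 counts in Spt5-depleted libraries, against 13, 14 and 11 counts in WT libraries.

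The vacuolar proton pump, which makes the proton gradient that VMAT1 spends, was followed through a chosen list of 16 genes. The neighbour Atp6v1b2 is among them, and 15 of the 16 were tested. Of these 12 rose (80.0%, against 31.8% of all tested genes) and 0 fell, with a median log2 fold change of 0.43. At an unadjusted p under 0.05, by DESeq2 and by limma-voom, 0 fell as well. Atp6ap1 rose to 398 ± 24.5 CPM in Spt5-depleted, against 192 ± 15.5 CPM in WT libraries (SD, n = 3 each; edgeR adjusted p = 1.93e-07). Atp6v1d had a log2 fold change of 1.00 and Atp6v1g1 one of 0.69 (adjusted p = 2.65e-07 and 9.44e-06).

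Around Pmel, 34 genes of melanosome and lysosome-related organelle biogenesis were followed, of which 31 were tested. They rose in 16 cases (51.6%, against 31.8% of all tested genes) and fell in 5, with a median log2 fold change of 0.23, and none of them rose 8-fold. The count of risen genes was 11 to 14 when each library was left out, 13 with DESeq2 and 19 with library totals alone. Without Spt5-depleted replicate 1 only 2 fell, and without Spt5-depleted replicate 3 or WT replicate 1 3 fell. Over all genes 4962 of 12024 rose with library totals alone and 3614 with DESeq2. Leaving out each library gave 3431 to 3784 risen genes over the whole table, against 3823 with all libraries. Atp7a, the copper transporter that supplies tyrosinase, rose to 38.8 ± 0.716 CPM in Spt5-depleted, against 10.5 ± 2.17 CPM in WT libraries (SD, n = 3 each; edgeR adjusted p = 1.92e-08). Rab32, a GTPase of cargo delivery to melanosomes, and Bloc1s1, a subunit of a sorting complex, rose by 1.06 and 0.75 on the log2 scale (adjusted p = 4.31e-06 and 3.39e-05). Gpnmb, the paralog of Pmel, had 123, 242 and 308 counts in Spt5-depleted libraries, against 89, 73 and 93 counts in WT libraries, a log2 fold change of 1.54 ± 0.21 (SE, adjusted p = 3.65e-05) with no overlap and a wide spread among the depleted libraries. Rab27a, which carries mature melanosomes to the cell edge, fell by 0.74, the lysosomal channel Tpcn2 fell by 1.24 and the cystine importer Slc7a11 by 0.72 on the log2 scale (adjusted p = 7.70e-06, 2.98e-05 and 0.0227). The call of Slc7a11 was lost with library totals alone (adjusted p = 0.0716) and without Spt5-depleted replicate 1, WT replicate 1 or WT replicate 2 (adjusted p = 0.0923, 0.0760 and 0.0589).

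The leucine-rich repeat family was followed through the other 40 rows named Lrrc with a number, of which 32 were tested. Of these 13 rose (40.6%, against 31.8% of all tested genes) and 6 fell, with a median log2 fold change of 0.14. Lrrc24 rose most, from a low level, with 44, 40 and 54 counts in Spt5-depleted libraries, against 5, 6 and 6 counts in WT libraries (log2 fold change 3.16 ± 0.33 SE, edgeR adjusted p = 1.18e-06). Lrrc63 had 30, 43 and 39 counts in Spt5-depleted, against 10, 9 and 1 in WT libraries (2.62 ± 0.43 SE, adjusted p = 9.81e-05), and Lrrc57 had a log2 fold change of 0.76. Lrrc16a, a regulator of actin capping, fell by 1.35, Lrrc58 by 0.50 and Lrrc59 by 0.35 on the log2 scale (adjusted p = 1.03e-05, 0.000325 and 0.00144). The shared name stands for a repeat that many unrelated proteins contain, and Lrrc24, Lrrc57 and Lrrc59 carry the overlap suffix.

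**Figure D4:**
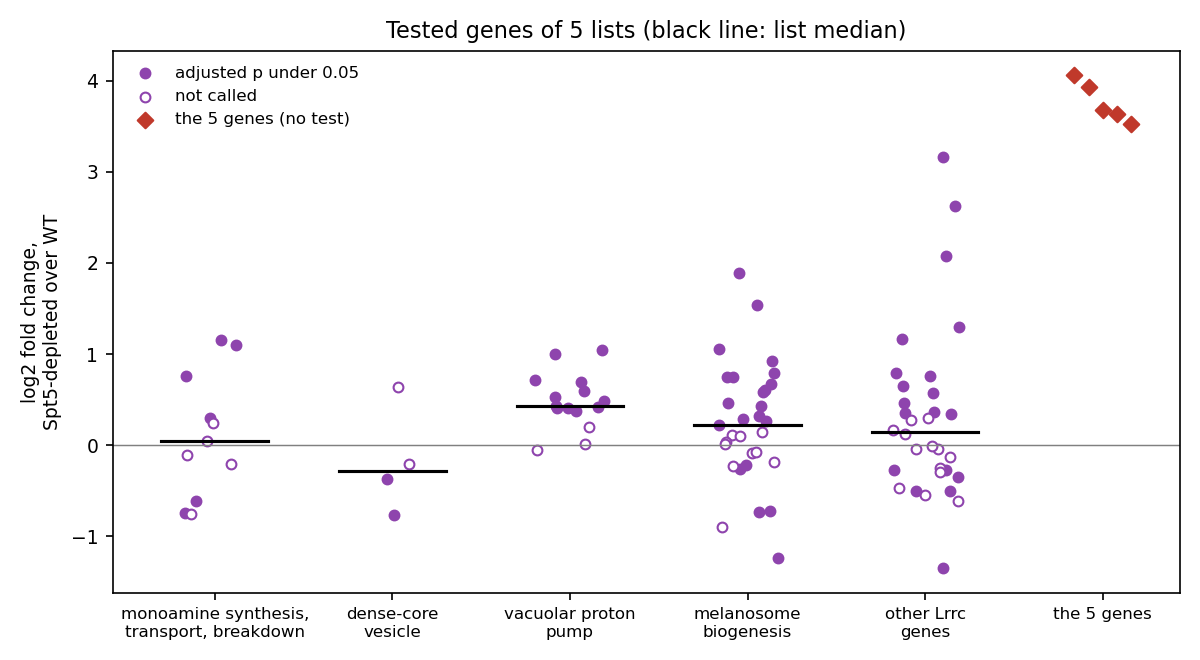
Log2 fold change (Spt5-depleted over WT) of each tested gene of 5 lists and of the 5 genes, which have no test. Filled circles passed an adjusted p of 0.05, open circles did not, and the black line is the list's median, between -0.29 and 0.43. The vacuolar proton pump is the list in which 12 of 15 tested genes rose.

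Markers of cell types in which these genes are known to be used were few in the table and low in level. Of 13 melanocyte markers 4 had a row, Slc24a5, Mitf, Mc1r and Ednrb, and the table used here has none for Tyr, Tyrp1, Dct, Mlana or Sox10. Their summed level was 1.68 to 2.20 CPM in Spt5-depleted and 2.72 to 3.45 CPM in WT libraries. Slc24a5 did not pass (edgeR adjusted p = 0.308), and Mc1r and Ednrb, with 0 to 6 counts per library, were not tested. Mitf, the master regulator of pigment cells, had a log2 fold change of -0.88 (edgeR adjusted p = 0.0125). Of 11 chromaffin and sympathetic markers 2 had a row, Gata3 and Chga, with a summed level of 0.558 to 0.995 CPM in Spt5-depleted and 1.18 to 1.69 CPM in WT libraries. Of 12 markers of hair cells of the inner ear, where Tomt acts, 3 had a row, and their sum was 11.5 to 13.8 CPM in Spt5-depleted and 15.2 to 20.1 CPM in WT libraries. Over 9 lists of non-immune cell types, 27 of 98 markers had a row and 17 were tested. Of these 3 rose and 7 fell, next to 31.8% and 30.6% of all tested genes. The highest log2 fold change was 1.62 for Apoa2, a lipoprotein of hepatocytes.

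All 10 B cell markers had a row, with a summed level of 4416 to 5101 CPM in Spt5-depleted and 5460 to 5525 CPM in WT libraries, so the defining markers of the labelled cell type were present. By edgeR 0 of the 10 rose and 4 fell, next to 31.8% and 30.6% of all tested genes. At an unadjusted p under 0.05 1 had risen, and 0 with DESeq2 or limma-voom. Summed T cell markers lay at 23.4 to 47.3 CPM in Spt5-depleted and 49.0 to 51.9 CPM in WT libraries. NK cell markers lay at 10.7 to 21.9 CPM in Spt5-depleted and 30.6 to 42.1 CPM in WT libraries. Of 10 tested T cell markers 0 rose and 1 fell, Lck, with means of 14.4 CPM in Spt5-depleted and 26.8 CPM in WT libraries. Of 5 tested NK cell markers 1 rose, Eomes, and 2 fell, Gzma and Gzmb. Gzmb had means of 5.06 CPM in Spt5-depleted and 20.3 CPM in WT libraries, so single genes weigh heavily in these sums. Of the 9 macrophage and monocyte markers with a row, 7 were tested and 5 rose, next to 31.8% of all tested genes. Their summed level was 29.3, 64.1 and 50.8 CPM in the Spt5-depleted libraries, against 24.1, 32.6 and 27.7 CPM in the WT libraries, and the groups overlapped. Gpnmb, also known as a macrophage gene, was lowest among the depleted libraries in replicate 1, at 6.87 CPM. The part of macrophage RNA in the values of Gpnmb and of the 5 genes was not tested.

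**Figure D5:**
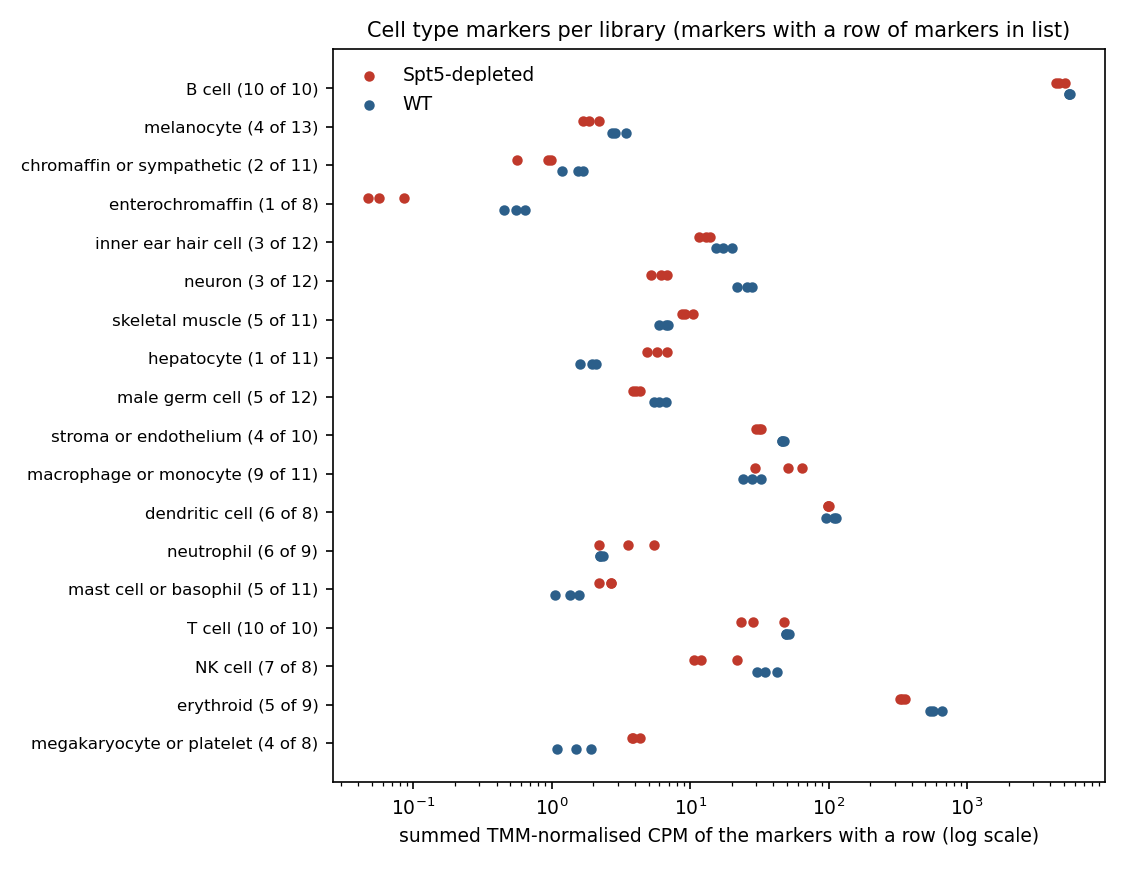
Summed TMM-normalised CPM (log scale) of the markers of 18 cell types in each library, Spt5-depleted (red) above WT (blue). The numbers after each name say how many markers of the list had a row. Melanocyte and chromaffin sums stay below 4 CPM in every library, against at least 4416 CPM for B cells.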

How the data were processed

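Of 24 samples, the 6 RNA-seq libraries were analysed. The other 18 samples belong to other assays and were left out, and sample titles gave the groups. RNA was extracted with Trizol and made into libraries with the SENSE mRNA-seq kit of Lexogen, per the labels' protocols. The submitters' processing notes name mm9 and the tools featureCounts 1.5.0-p1, TopHat, Bowtie2 2.1.0, cutadapt 1.10 and DESeq2 1.10.1. Annotation, strand setting and the handling of reads with several matches are not given there. The deposited table holds raw read counts, with at least 10 counts per row in all. A log2 fold change of the authors and their adjusted p-value stand beside the deposited counts and were used for no result.

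The tests used edgeR 4.0.16 under R 4.3.3: filterByExpr, which left 12024 genes, TMM scaling, a robust quasi-likelihood F test, two-sided, and Benjamini-Hochberg adjustment over all tested genes at 0.05. Standard errors were derived from the F statistic. No libraries within a group agreed within counting noise (chi-square per degree of freedom 6.45 to 33.2). The test was tried on simulated data. The 5 genes and all lists were chosen with earlier results of these data known. Named genes are the 5, their neighbours, paralogs, the 3 most similar rows each, the 5 rows just outside the rule, and up to 3 risen and 3 fallen genes per list with the smallest p; 1 of them is not reported here. RefSeq (GRCm38.p6), another build than the authors' mm9, gave names, neighbours and promoters, with 14017 of 14106 rows matched. Alternatives were other scalings, filters and tools (DESeq2 1.42.0, limma 3.58.1), a replicate block, other thresholds and leaving out each library.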

Additional observations from a re-analysis of the deposited data

How the results depend on the processing

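Each of the 5 genes kept its direction under every alternative run. Leaving out each library gave log2 fold changes of 3.89 to 4.22 for Slc18a1, 3.69 to 4.15 for Lrrc51, 3.48 to 3.93 for 0610009L18Rik, 3.54 to 3.79 for D130020L05Rik and 3.49 to 3.56 for Pmel. Library totals alone raised all of them, to 4.22 for Slc18a1, 4.09 for Lrrc51, 3.83 for 0610009L18Rik, 3.79 for D130020L05Rik and 3.69 for Pmel. Only for Pmel, whose libraries vary little, was this more than their SD, as was the move to 3.46 with a prior count of 2. With 10 neighbours on each side 14 rose and 16 fell among 47 tested, and with a mean of at least 5 CPM 4 neighbours fell. That minimum, which leaves fewer genes, also gave 2 risen monoamine genes, 7 risen Lrrc genes and 2 fallen melanosome genes. With library totals alone 1 dense-core vesicle gene rose and 1 fell, 2 melanosome genes fell and 3 Lrrc genes fell. That scaling moved the whole table, with a median log2 fold change over all genes of 0.16, against 0.005 with TMM. Over all genes 4962 rose and 2694 fell with it, against 3823 and 3681 with TMM. At an adjusted p under 0.01, 1 dense-core vesicle gene fell, 11 melanosome genes rose and 2 fell, and 8 Lrrc genes rose and 3 fell. Leaving out each library gave 11 to 14 risen and 2 to 4 fallen melanosome genes, against 16 and 5 with all libraries. Of these genes 2 fell without Spt5-depleted replicate 1 and 3 without Spt5-depleted replicate 3 or WT replicate 1. Over all genes the same runs gave 3431 to 3784 risen and 3281 to 3678 fallen genes.

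Same-numbered libraries deviated with correlations of 0.04, -0.04 and -0.01 across genes, next to -0.07 to 0.09 for libraries of unlike numbers. No shared deviation by replicate number was thus seen, which does not tell whether the libraries were prepared as pairs. With the replicate number as a block 3 melanosome genes fell, and over all genes 3755 rose and 3614 fell, against 3823 and 3681 without it; Cdk2 no longer passed (adjusted p = 0.0632). The low WT counts of the 5 genes, 16 to 89 per library, limit how precisely their folds are known.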

Other observations

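Single markers of other cell types differed steeply in both directions. They were chosen after their values were seen. Xcr1, a chemokine receptor of cross-presenting dendritic cells, rose to a mean of 5.98 CPM in Spt5-depleted, against 0.881 CPM in WT libraries (log2 fold change 2.75, edgeR adjusted p = 6.45e-08), while Batf3, a transcription factor of the same cells that activated B cells also use, fell to 2.26 CPM in Spt5-depleted, against 13.0 CPM in WT libraries (-2.52, adjusted p = 3.41e-08). Gp1ba, a platelet glycoprotein, rose to 2.18 CPM in Spt5-depleted, against 0.312 CPM in WT libraries (2.78, adjusted p = 9.44e-06). Nefh, a neurofilament subunit, fell to 4.55 CPM in Spt5-depleted, against 21.4 CPM in WT libraries (-2.24, adjusted p = 7.52e-09), and Kdr, an endothelial growth factor receptor, fell to 0.141 CPM in Spt5-depleted, against 1.53 CPM in WT libraries (-3.36, adjusted p = 2.58e-05).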
